A study of Drosophila melanogaster with 3 samples.

Results

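The 300 strongest reproducible peaks of the protein CG10669 were the 300 regions of highest signal among 7248 reproducible peaks in whole Drosophila melanogaster prepupae. They were chosen on the signal of a pooled peak call, so their height in that call is a description and was not tested. All 3 samples were biological replicates of 1 group, males and females pooled, from a transgenic fly line (strain CG10669-GFP) that stably expressed CG10669 with green fluorescent protein (GFP) at its C-terminus. No sample without the tag and no second condition was analysed here, and an age label that does not match a prepupa was not used. Chromatin had been sonicated to a size range of 200 to 800 bp, and chromatin immunoprecipitation with sequencing (ChIP-seq) then located the protein. A free-text label calls these samples input controls, against their assay label, and was not followed. The antibody field names CG10669 and the line carries a GFP fusion, so recovery of the tagged protein alone and of both forms cannot be told apart.

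ChIP-seq enriches DNA fragments cross-linked to a protein, and a peak is a stretch with more reads than a control, whose summit is its highest point. Prepupae are animals entering metamorphosis, a time when pulses of the steroid ecdysone switch on a cascade of nuclear receptors and other early regulators. CG10669 itself has no given name. Translated from the annotated coding sequence, it has 933 residues with 14 matches to the spacing of C2H2 zinc fingers, small zinc-holding folds that in many proteins read DNA. Its own gene, on 3R from 25331363 to 25335243, lay 52459 bp from the nearest reproducible summit, which ranked 6756 and is therefore not one of the 300.

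Each replicate had its own list of 30000 candidate peaks. A relative signal is a peak's signal over the median signal of all candidates in that list, and a replicate rank is the place of the nearest candidate within 200 bp of the summit. Values in 3 replicates are given in the order replicate 1, 2 and 3, and the 3 ranks of a peak are joined by strokes. The number of reads per sample is unknown, so no depth stands behind single values. Pooled signals of the 300 ran from 1453 to 6844 with a median of 1809.5, against a median of 293.3 in the other 6948 reproducible peaks. The 300 are 4.14% of the reproducible peaks and held 18.8% of their summed signal. Peak width ranged from 345 to 1594 bp with a median of 434 bp, and 9 peaks were wider than 800 bp.

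The summits were AT-rich on average, and a minority of the peaks held short G- and C-containing words beside the summit. At least 1 of 4 such words of 8 letters, described below, was in 59 of the 300 (19.7%, against 9.18% of the other reproducible peaks). The 6-letter word ACAGTG, read toward the summit, was on both sides in 25 of the 300 (8.33%, against 2.43%). These words were chosen on the 300. The 4 peaks below are the highest-ranked outside the top 25 whose left and right arms both hold ACAGTG, which had the largest excess toward the summit among words of its length, within 40 to 139 bp of the summit. They are printed in dm6 coordinates on the plus strand, from 140 bp before to 140 bp after the summit, and the capitals mark ACAGTG on the left and its reverse complement CACTGT on the right.
CG31668, rank 26, chr2L:2202263-2202543: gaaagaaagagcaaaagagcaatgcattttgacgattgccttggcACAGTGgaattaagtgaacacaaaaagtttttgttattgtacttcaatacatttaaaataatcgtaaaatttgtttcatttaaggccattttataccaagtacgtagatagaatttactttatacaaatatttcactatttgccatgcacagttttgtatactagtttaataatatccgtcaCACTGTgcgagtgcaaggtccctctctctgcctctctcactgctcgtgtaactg
Rtnl1, rank 82, chr2L:4997531-4997811: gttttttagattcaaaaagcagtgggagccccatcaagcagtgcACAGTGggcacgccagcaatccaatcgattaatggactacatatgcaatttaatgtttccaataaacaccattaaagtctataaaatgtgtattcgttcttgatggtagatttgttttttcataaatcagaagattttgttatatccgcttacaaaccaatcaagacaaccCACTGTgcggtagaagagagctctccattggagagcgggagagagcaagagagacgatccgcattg
ph-p, rank 89, chrX:2137806-2138086: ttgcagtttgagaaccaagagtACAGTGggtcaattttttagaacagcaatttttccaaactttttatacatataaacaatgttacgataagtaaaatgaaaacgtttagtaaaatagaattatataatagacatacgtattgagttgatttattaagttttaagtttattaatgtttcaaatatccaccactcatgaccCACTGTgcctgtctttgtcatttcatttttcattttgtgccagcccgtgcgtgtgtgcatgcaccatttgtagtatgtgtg
for, rank 107, chr2L:3655686-3655966: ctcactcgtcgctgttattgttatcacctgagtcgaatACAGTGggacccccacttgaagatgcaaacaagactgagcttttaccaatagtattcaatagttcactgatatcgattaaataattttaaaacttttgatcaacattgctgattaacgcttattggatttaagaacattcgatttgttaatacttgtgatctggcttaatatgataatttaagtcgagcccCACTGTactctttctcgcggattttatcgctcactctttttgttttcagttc
The first peak is intergenic, 3763 bp from a transcription start site (TSS) of CG31668. The second lies 290 bp from a TSS of Rtnl1, which encodes a reticulon that shapes the endoplasmic reticulum. The third lies 425 bp from a TSS of ph-p, which encodes the Polycomb repressive complex subunit Polyhomeotic, and the fourth is in an intron of for, which encodes a cGMP-dependent protein kinase.

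Other peaks held other words. Those below show CACTGAGA, read toward the summit, and CTACGCCC, read away from it, with the word in capitals in the 201 bp at the summit. The first sequence is on the plus strand, the second on the minus strand, the third on the plus strand and the fourth on the minus strand.
ImpL2, rank 73, chr3L:4228285-4228485: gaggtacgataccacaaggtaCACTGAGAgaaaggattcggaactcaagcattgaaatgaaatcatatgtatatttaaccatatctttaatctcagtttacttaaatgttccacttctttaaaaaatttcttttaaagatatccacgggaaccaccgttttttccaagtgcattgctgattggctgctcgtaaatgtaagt
Tmhs, rank 121, chr3L:1886146-1886346: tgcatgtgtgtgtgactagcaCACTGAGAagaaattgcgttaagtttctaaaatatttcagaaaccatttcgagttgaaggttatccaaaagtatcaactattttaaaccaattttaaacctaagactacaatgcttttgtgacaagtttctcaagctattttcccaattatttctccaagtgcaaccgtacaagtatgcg
Lamtor3, rank 59, chr2L:17481033-17481233: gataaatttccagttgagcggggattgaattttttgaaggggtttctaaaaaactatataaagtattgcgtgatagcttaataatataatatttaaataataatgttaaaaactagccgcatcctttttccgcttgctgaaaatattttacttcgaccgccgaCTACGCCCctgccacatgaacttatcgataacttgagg
CG5611, rank 48, chr3R:27636079-27636279: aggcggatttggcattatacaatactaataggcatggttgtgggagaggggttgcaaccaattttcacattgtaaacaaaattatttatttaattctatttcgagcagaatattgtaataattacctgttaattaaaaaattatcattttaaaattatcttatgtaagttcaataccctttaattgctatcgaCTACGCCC
ImpL2 encodes a secreted antagonist of insulin-like peptides and Lamtor3 a subunit of the Ragulator complex, which acts upstream of TOR. The peaks of ImpL2 and Tmhs are intronic, while the other 2 lie 98 and 119 bp from the TSSs of Lamtor3 and CG5611.

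The mean GC fell to a minimum at the summit in promoter, intron and intergenic peaks. In the 300 peaks the G+C content (GC) averaged 30.2% within 50 bp of the summit, 45.7% from 130 to 250 bp and 42.3% beyond 790 bp. Promoter, intron and intergenic peaks had 29.7%, 30.3% and 31.1% at the centre, and 44.2%, 47.1% and 47.3% at 130 to 250 bp. The 10 peaks of the other classes were too few for a profile and included 2 at 54% and 55.5% GC, in a 3′ UTR of Lsd-2 and a 5′ UTR of cbt. The next 300 peaks, ranks 301 to 600, gave 29.8% and 46.6%, and the 300 reproducible peaks of lowest signal gave 36.8% and 43.1%. The trough was therefore deep in the 300 and in the next 300 alike, and shallower in the weakest reproducible peaks. In the replicates' own 300 strongest candidates the centre had 28.4%, 30.8% and 31.6%.

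**Figure D1:**
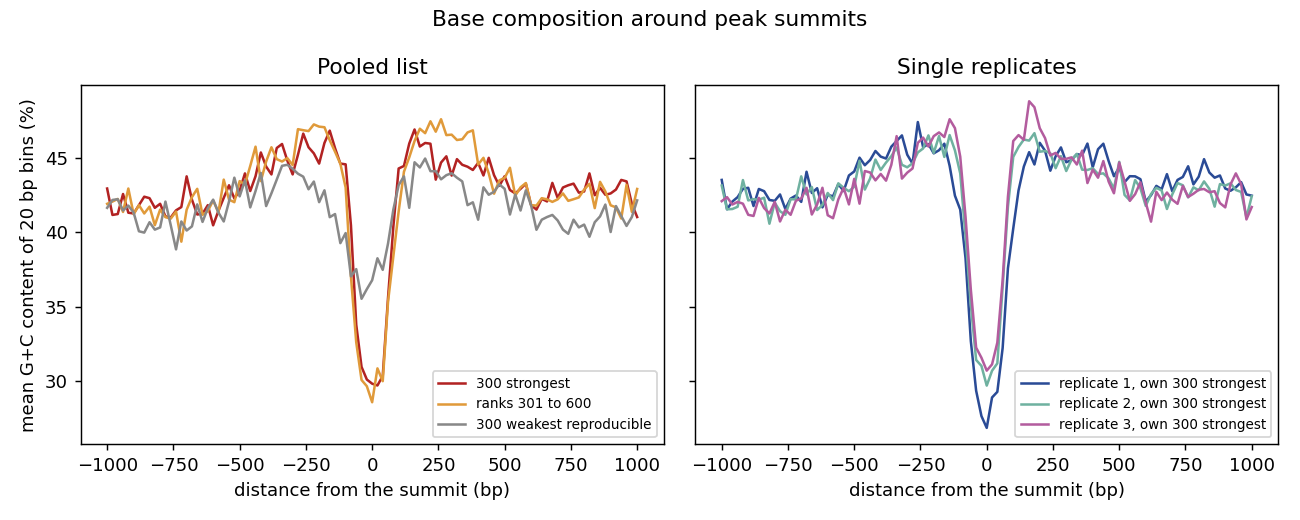
Mean G+C content in 20 bp bins (percent) against the distance from the summit (bp), for 3 rank groups of the pooled list (left) and for the 300 strongest candidates of each replicate (right). The 300 strongest peaks drop to 29.7% in their lowest bin, the 300 weakest reproducible peaks to 35.5%, and the lowest of the 3 replicates is replicate 1 at 26.8%.

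A test over replicates asked whether strong candidates were lower in GC than weaker ones, with values in each replicate's own list. In the 200 bp at the summit the 300 strongest candidates had 32.2%, 35.1% and 36% GC, and the next 6948 candidates had 34.1%, 36.5% and 36.8%. The strongest were lower in 3 of 3 replicates, by a mean difference of -1.33 ± 0.515 percentage points (SD, n = 3). The exact two-sided sign-flip permutation p was 0.25, the smallest that 3 replicates allow. The direction depended on the comparison: against the next 300 candidates only, the mean difference was 0.527 points, and in a 400 bp window it was 0.81 points. Its size also varied, with -3.81 points in a 100 bp window and -0.662 points for the 150 strongest.

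The words were found by counting every 8-letter word with at least 4 G or C letters in the 200 bp at the summits against windows 500 bp away on both sides, on both strands. Words sharing a run of 6 letters with one already taken were skipped, and the first 4 were kept. They were chosen after their counts in the 300 peaks were seen, so those counts are a description. CACAGTGG was in 21 of the 300 windows (7%, 95% Wilson interval 4.62 to 10.5%) and in 0.833% of the flanking windows. CACTGAGA was in 15 windows (5%, flanks 0.333%), CTACGCCC in 14 (4.67%, flanks 0.5%) and CAGGGGCG in 13 (4.33%, flanks 0.333%). At least 1 of the 4 was in 59 of 300 windows (19.7%), against 1.83% of their flanks. The share was 11.7% in ranks 301 to 600 and 9.18% in the other reproducible peaks, with 2.09% in the flanks of the latter. In the 300, 4 windows held more than 1 word, always CTACGCCC with CAGGGGCG. These words can overlap, as in the Lamtor3 sequence above.

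The other reproducible peaks played no part in choosing the words. CACAGTGG was in 3.61% of their windows and 1.02% of their flanks, and CACTGAGA in 4.78% and 0.468%. CTACGCCC and CAGGGGCG were rarer there, in 0.374% and 0.619% of windows, against 0.23% and 0.374% of flanks. In ranks 301 to 600 each of these last 2 was in 2 of 300 windows (0.667%). CACAGTGG was in 17 of those 300 windows (5.67%) and CACTGAGA in 15 (5%), shares near those in the 300 strongest. CACTGAGA was thus about as frequent in weaker reproducible peaks as in the 300, while CTACGCCC had a higher share in the 300, on which it was chosen, and was in 26 windows of the others. Among 13748 windows of 200 bp at protein-coding TSSs, 1 per gene, the 4 words were in 0.793% (CACAGTGG), 0.676% (CACTGAGA), 0.24% (CTACGCCC) and 0.233% (CAGGGGCG).

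Among all 300 peaks, 51.3% were promoters and 33.7% introns, and the class counts of the words were not tested against these shares. The peaks with CTACGCCC were mostly promoters, 12 of 14, and included the 2 peaks of highest signal in the whole list, at CG14100 and Ugalt. The peaks with CACTGAGA were introns in 9 of 15 cases, among them ImpL2, edl, pnt, Tet and aop. Of these, pnt encodes the activating and aop the repressing ETS transcription factor at the end of EGF receptor signalling, and edl encodes a regulator that binds both. Those with CACAGTGG were promoters in 13 of 21 cases. CAGGGGCG was in 7 introns and 5 promoters, among them Mhcl, Pak3, upSET and eIF6.

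Most occurrences of the words in the 300 lay beside the summit. Within 300 bp of the 300 summits the 4 words occurred 118 times, and 94 of these (79.7%) had their centre 50 to 149 bp away and 2 (1.69%) under 50 bp. In the other reproducible peaks 835 of 1479 occurrences (56.5%) lay at 50 to 149 bp and 223 (15.1%) under 50 bp. Ranks 301 to 600, which are part of these others, had 67 of 112 (59.8%) and 8 (7.14%). The words were chosen for excess in the 200 bp at the 300 summits and for G and C letters. Their positions in the 300 therefore depend on that choice, and the contrast with the other peaks was not tested. The words also had a direction, which was not used in choosing them. CACTGAGA was read toward the summit in 22 of 23 occurrences in the 300 and in 532 of 589 in the other peaks. CACAGTGG was read toward it in 39 of 47 and 552 of 657 occurrences. CTACGCCC was read away from the summit in 18 of 19 occurrences in the 300 and in 54 of 88 in the other peaks. CAGGGGCG was read toward it in 24 of 29 and 91 of 145 occurrences. CTACGCCC and the reverse complement of CAGGGGCG can overlap, as in the Lamtor3 sequence above, so their directions are not separate observations.

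**Figure D2:**
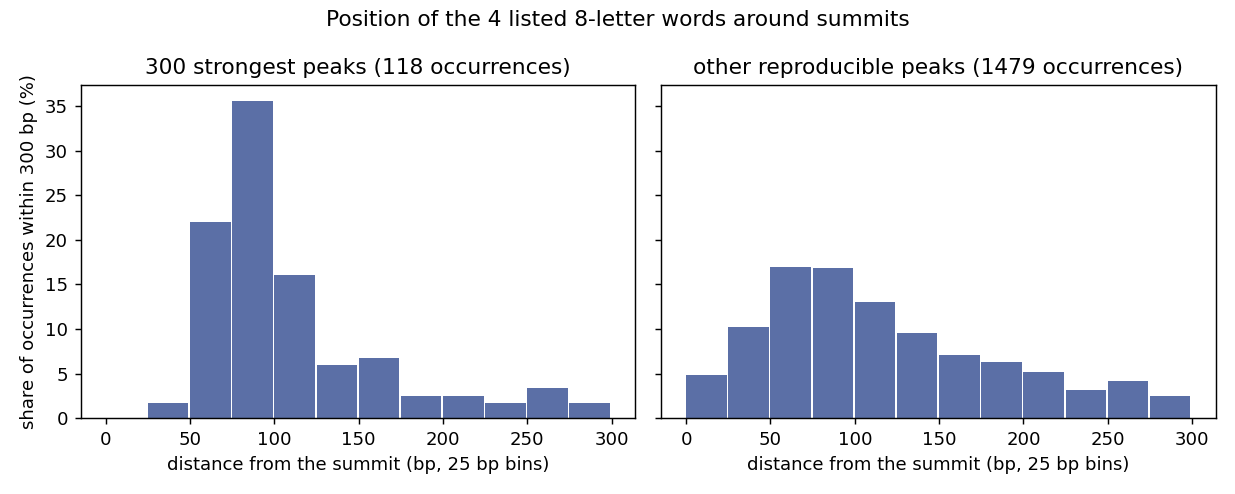
Share of occurrences (percent) of the 4 words within 300 bp of a summit, in 25 bp bins of distance from the summit, for the 300 strongest peaks (118 occurrences) and the other reproducible peaks (1479). In the 300 strongest peaks 79.7% of the occurrences lie 50 to 149 bp away.

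Words of 6 letters in the arms of the peak, 40 to 139 bp from the summit on each side, were also counted by direction. ACAGTG is contained in CACAGTGG, so its counts include some of the occurrences above and are not separate observations. The word with the largest excess toward the summit in the 300 was ACAGTG, in 100 of 600 arms (16.7%) read toward the summit and in 27 (4.5%) read away from it. In the other reproducible peaks, which were not used to choose it, it was in 1094 of 13896 arms (7.87%) toward and 453 (3.26%) away. In arms shifted a further 500 bp outward the 300 had 1.83% toward and 4% away. Both arms held ACAGTG toward the summit in 25 of the 300 peaks (8.33%), in 19 of ranks 301 to 600 (6.33%) and in 169 of the 6948 others (2.43%). The share of arms toward the summit was 15.6% in promoter, 18.8% in intron and 18.6% in intergenic peaks of the 300. GAGAAA had 69 arms toward and 20 away in the 300, and 1480 toward and 437 away in the others.

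Of 22 known short motifs searched on both strands of the 200 bp windows, those made of A and T were more frequent at the summits than in the flanks, and several G- and C-containing ones were less frequent. The TATA box letters TATAAA were in 37.7% of the 300 windows and 18.2% of flanks, and the homeodomain letters TAATTA in 18.3% and 12%. In the replicates' own 300 strongest TATAAA was in 38.1 ± 3.67% and TAATTA in 18.4 ± 3.83% (SD, n = 3). The GAGA factor letters GAGAG were in 24% of windows and 32.7% of flanks, the Pleiohomeotic core GCCAT in 21% and 33%, and the E-box CANNTG in 56.7% and 67.7%. The nuclear receptor letters AGGTCA was equally frequent in both, at 3.67%. The 2 elements best known from housekeeping promoters were rare. TATCGATA, the DRE, was in 4 of the 300 windows (1.33%) and GGTCACAC, the M1BP element, in 1 (0.333%). Their flanks had 0.667% and 0.5%, and the other reproducible peaks 0.921% and 0.95%. Windows at all protein-coding TSSs had 7.41% and 6.42%. Those windows sit at the TSS, while the 300 sit at summits and include peaks outside promoters, so these shares are not like for like. Other motifs higher at the summits were the poly(A) tract AAAAAAA (24.7%, flanks 17.8%), the repeat ATATATA (13.7%, 7.5%), the initiator TCAGT (36%, 30.3%), the forkhead letters GTAAACA (7%, 4.33%), the GATA letters AGATAA (12.3%, 10.8%) and the Stat92E letters TTCNNNGAA (6.67%, 4.83%). CGATA (19.7%, 18.8%), CAGGTAG (1.33%, 1%), GAANNTTC (5.33%, 5%) and TGACGTCA (0.333%, 0.167%) were close to their flanks. TGANTCA (3.33%, 4.17%), GTGGGAA (3%, 3.17%), CACGTG (2%, 2.33%) and TTTCGCGC (0.333%, 0.667%) were also close to their flanks, on the lower side. CGATA lies within TATCGATA, and CACGTG matches CANNTG, so these pairs overlap. Base composition differs between summits and flanks, as the GC values above show, and its part in these shares was not tested.

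Among 7-letter words, all of the 12 with the largest excess over the flanks were made of A and T only. ATTTTAA was in 85 windows (28.3%, flanks 8.33%) and AAAATAA in 95 (31.7%, flanks 15.3%). In the other reproducible peaks they were in 20.3% and 28% of windows, with 10.2% and 16.6% in the flanks.

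Promoters were the largest annotation class, with 154 of the 300 peaks (51.3%, 95% Wilson interval 45.7 to 56.9%). A summit counted as promoter within 500 bp of a TSS of a protein-coding gene. The intervals cover counting error only. Introns held 101 (33.7%), intergenic positions 35 (11.7%), other exons 6, 5′ UTRs outside promoters 2, 3′ UTRs 2 and coding exons 0. The other reproducible peaks had 26% promoter, 48.7% intron and 21.6% intergenic summits. The promoter share was 64% in ranks 1 to 25, 60% in ranks 26 to 100, 52% in ranks 101 to 200 and 41% in ranks 201 to 300. Ranks 301 to 600 had 42%. Intergenic peaks went the other way, from 0 of 25 in ranks 1 to 25 to 5 of 75, 13 of 100 and 17 of 100 in the next bands.

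**Figure D3:**
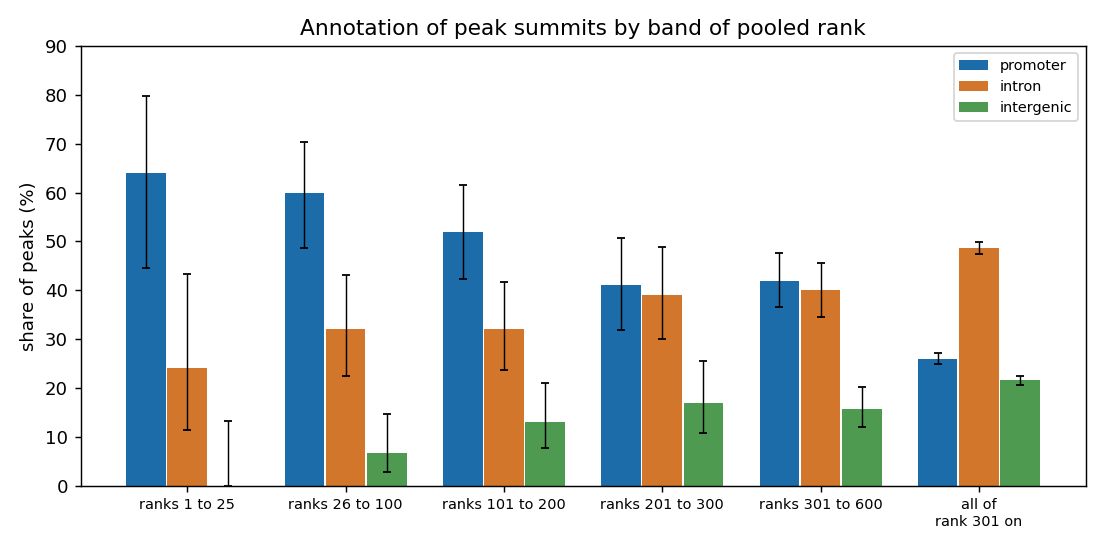
Share of peaks (percent, bars from 0) with promoter, intron and intergenic summits in bands of pooled rank, with 95% Wilson intervals. Promoter shares are 64%, 60%, 52% and 41% within the 300, 42% in ranks 301 to 600 and 26% in all peaks from rank 301 on.

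The replicates gave the promoter comparison without the pooled call. Their own 300 strongest candidates had promoter shares of 57.3%, 50.3% and 45.3%, and the next 6948 candidates had 25.4%, 29.7% and 29.3%. The share was higher in the strongest in 3 of 3 replicates, by a mean of 22.8 ± 8.18 percentage points (SD, n = 3). The exact two-sided sign-flip permutation p was 0.25, the smallest that 3 replicates allow. The difference was largest in replicate 1, at 31.9 points, and smallest in replicate 3, at 16 points. Against the next 300 candidates only, the mean difference was 11.7 points. The promoter share of the 300 depended on the annotation, with 39.3% for a 250 bp window, 62% for 1000 bp and 38.7% when only canonical transcripts gave TSSs.

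Promoter summits sat mostly upstream of the nearest TSS, which in some cases was a TSS inside the same gene. Of the 154, 132 were upstream and 22 downstream, against 1391 upstream of 1809 in the other reproducible peaks. The median distance in the 300 was 150.5 bp. Within 100 bp lay 34, from 101 to 250 bp 84, and beyond that 36. In 48 cases TSSs on both strands lay within 500 bp, so that 1 peak marked a divergent or overlapping gene pair, and 51 peaks had 2 genes within the window. In all, 202 protein-coding genes of 13945 had one of the 300 summits within 500 bp of a TSS (1.45%). Of the 146 peaks outside promoters, 98 were within 5 kb of a TSS, 48 were farther and 15 were more than 10 kb away. Peaks beyond 5 kb were 16% of the 300 and 33.9% of the other reproducible peaks. The nearest TSS belonged to the gene that contained the peak in 95 of the 146 cases, and 12 of them lay within 500 bp of the start of a non-coding gene.

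Genes described from here on that lie outside ranks 26 to 60, the gene lists, the loci and the extremes were named after their values were seen. Ranks 26 to 60 comprised 22 promoter, 8 intron, 4 intergenic and 1 other exon peak. Promoters of metabolic and translation genes were among them. Gapdh2, a glycolytic enzyme gene, had ranks 62/29/44 and relative signals of 32.7, 34.3 and 33.8, one of the closest agreements between replicates in the set. RpL37A, the only cytoplasmic ribosomal protein gene at a promoter of the 300, had ranks 25/36/99 and relative signals of 46.2, 32 and 25.3. The promoter shared by CG18428 and eIF4EHP, which encodes a cap-binding repressor of translation, had ranks 17/46/115. Lpin, which encodes the lipin phosphatase of fat synthesis, had ranks 38/71/72. A peak inside the lipoprotein receptor gene LpR2 had 59/47/46. It lay in an exon outside coding sequence and UTRs, 159 bp from the start of the non-coding gene lncRNA:CR46102. Replicate 1 placed RpL37A, eIF4EHP and Lpin highest, while the LpR2 ranks lay close together. The catalase gene Cat, which detoxifies hydrogen peroxide, had ranks 85/33/41, and Lamtor3, which shares its promoter peak with the Golgi tethering gene fws, had 40/82/102.

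Several peaks of this band belonged to genes with no given name or lay far from any protein-coding start site. Distances to genes are to protein-coding TSSs throughout, and a non-coding gene can start nearer. CG13323 was 11978 bp from its intergenic peak, with ranks 55/20/21, and eEF1gamma, a translation elongation factor gene, was 5723 bp from one with 58/22/20. CG43245 was 4635 bp from one with 61/41/17. All 3 ranked worst in replicate 1, and the eEF1gamma peak lay 113 bp from the start of the non-coding gene lncRNA:CR31044. Promoter peaks were shared by CG9147 and Fbw5, with 30/39/38, by CG11309 and CG7632, with 29/50/43, and by CG13390 and CG17294, with 27/42/67. The intron peak 565 bp from a TSS of CG4496 had ranks 22/49/77, and the peaks nearest CG12769, CG1888 and CG3552 had 34/37/40, 81/26/22 and 89/48/26. An intron of pum, which encodes the translational repressor Pumilio, held a peak with 32/30/36 and relative signals of 41.1, 32.7 and 36.2, and an intron of Reph one with 73/43/32. The promoters of gish, a casein kinase gene, and Tina-1 had 41/58/73 and 84/59/49, that of MFS18 had 39/91/56, and the intron peak nearest CG3726 had 65/69/35. Peaks in UTRs outside promoters were those of CG43389, with 108/375/334, and of the polarity gene baz, 18693 bp from its nearest TSS, with 203/212/258, beside Lsd-2 and cbt. Inside the tyrosine kinase gene FER, a peak in an exon outside coding sequence and UTRs had 352/219/255. It lay 3 bp from the start of the antisense RNA gene asRNA:CR46145.

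The genes of secretion and membrane traffic described here belong to no list and were picked by eye, across the whole range of ranks. Fkbp14, a prolyl isomerase gene of the endoplasmic reticulum, had ranks 18/61/48, with relative signals of 51.4, 25.6 and 32.6. Trp1, which encodes a Sec62 homolog of protein translocation, had ranks 131/40/24 and relative signals of 26.3, 30.3 and 40.3. The first was strongest in replicate 1 and the second weakest there. CHMP2B, an ESCRT-III subunit gene, had ranks 51/62/100, and TRAM, a gene of the translocation channel, had 350/257/78. Further down, Vti1b, a SNARE gene that shares its peak with the proton pump gene Vha100-2, had 219/112/149, the early endosome gene Rab5 had 286/220/319, alphaCOP, a coat subunit gene, had 273/274/347, and Arl1, a Golgi GTPase gene that shares its peak with the remodeller gene brm, had 141/269/564. Pal1, which encodes an enzyme that amidates neuropeptides, had 37/34/42.

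Mitochondrial genes occurred among the divergent promoters. Of 73 mitochondrial ribosomal protein genes, 6 had one of the 300 summits at a promoter (8.22%), which is to be read against 1.45% of all genes and was not tested. Beyond the top 25 these were mRpL23, with ranks 98/105/131, mRpS2, which shares its peak with Mon1, with 74/207/435, and mRpL24, which shares its peak with betaggt-I, with 127/420/595. Lon, a protease gene of the mitochondrial matrix, had ranks 44/174/266. The complex I gene ND-ASHI, which shares a promoter peak with the fumarase gene Fum1, had 458/153/123, as 1 of 80 oxidative phosphorylation genes (1.25%, against 1.45% of all genes). CIA30, a complex I assembly gene, shares the promoter peak of CG7601 at 67/38/45. The peaks at mRpS2, mRpL24 and Lon ranked highest in replicate 1 and lowest in replicate 3, and ND-ASHI ran the other way.

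Genes of the ecdysone response carried their peaks in introns and at distal sites more often than at promoters. Of 27 genes of this list, cbt alone had one of the 300 summits at a promoter (3.7%), with ranks 216/104/129, and 7 (25.9%) had one in the gene body or within 500 bp of it, against 2.37% of all protein-coding genes. Gene length was not taken into account, and neither share was tested. Hr4, a nuclear receptor gene of the ecdysone cascade, held 2 intron peaks, with ranks 206/52/37 and 319/129/141. Eip78C and Eip75B, both nuclear receptor genes, held intron peaks with ranks 47/72/88 and 335/173/130. Eip74EF, an ETS transcription factor gene, held one with 77/330/607 and relative signals of 30.4, 14.1 and 12.5, and vri, a bZIP transcription factor gene that also acts in the clock, held 2, with 86/154/264 and 156/216/236. Eip93F, the transcription factor gene that specifies adult fate, had 2 intergenic peaks 11821 and 7576 bp from its nearest TSS, with 106/98/146 and 95/213/331. Sox14, an ecdysone-induced HMG-box gene needed for pruning of neurons, had a promoter peak with 53/51/63, and E23, an ecdysone-induced transporter gene, one with 111/399/366. The ImpL2 intron peak, whose sequence is printed above, had 87/97/66. The Eip74EF peak and the nearer Eip93F peak ranked best in replicate 1, whereas those of Hr4 and Eip75B ranked worst there.

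Signalling genes mostly carried their peaks in introns as well. In the EGF receptor and MAP kinase list, 1 of 24 genes had a promoter peak (4.17%, against 1.45% of all genes) and 5 had a peak in the gene body or within 500 bp (20.8%, against 2.37%). Neither share was tested, and gene length was again left out of account. The promoter was that of spi, which encodes an EGF-like ligand, with ranks 193/222/343. Intron peaks lay in the kinase gene Raf, with 144/57/31, the ETS genes pnt and aop, with 342/238/121 and 333/270/183, and the repressor gene cic, with 266/268/242. Raf, pnt and aop had their best rank in replicate 3. The BMP ligand gene dpp held an intron peak with 107/65/57, its effector repressor gene shn one with 238/265/301, and the BMP receptor gene wit contained one nearest to CG32259 with 341/163/166. Of the Wnt, Hedgehog and Dpp list, 1 of 35 genes had a promoter peak (2.86%, against 1.45% of all genes), the kinase gene sgg, with 396/180/128. A peak 1749 bp from a TSS of the Wnt receptor gene fz had 128/347/398, and one 5170 bp from Wnt10 had 428/271/215.

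The Notch list had 0 of 25 promoters among the 300, which at 1.45% of all genes is no result about the list, and 10 of 25 (40%, against 15.4% of all genes) with any reproducible peak. The ubiquitin ligase gene neur, which activates Notch ligands, held an intron peak with ranks 174/83/58. The glycosyltransferase gene fng, which modifies Notch, had 2 intergenic peaks 730 and 1439 bp from its TSS, with 76/164/440 and 142/285/419. The start of the non-coding gene lncRNA:CR45243 was nearer to both, at 541 and 168 bp. E(spl)malpha-BFM, a Notch target gene, lay 1812 bp from an intergenic peak with 123/236/190. The corepressor gene gro had a promoter peak with 359/192/185. In the Hippo, JAK and JNK list the JNK phosphatase gene puc had a promoter peak with 70/148/225, and the peak in an intron of ex, a Hippo pathway gene, had 486/296/172. The stress kinase genes Mkk4 and p38a had promoter peaks with 94/107/137 and 103/362/531. The atypical cadherin gene ds lay 585 bp from a peak with 479/108/94.

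Chromatin regulator genes carried peaks in their introns and at promoters. Of 34 Polycomb and Trithorax group genes, 2 had promoter peaks (5.88%) and 7 had one in the gene body or within 500 bp (20.6%), against 1.45% and 2.37% of all genes. These shares were not tested, and gene length was not taken into account. ph-p had 2 promoter peaks 626 bp apart, with ranks 54/32/28 and 50/88/184. Psc, a Polycomb repressive complex gene, had an intron peak with 403/181/119 and an intergenic one 4229 bp from its nearest TSS with 213/318/303. The intergenic peak lay 144 bp from the start of the non-coding gene lncRNA:CR44339. The histone methyltransferase gene trx had 2 intron peaks, with 148/376/277 and 241/289/370, the remodeller subunit gene osa contained 2 outside the top 25, with 153/279/369 and 180/227/405, and Mi-2, a remodeller gene, contained one with 466/179/159. The peak of Trl, the GAGA factor gene, was intronic, with 31/78/64, and that of Cp190, an insulator protein gene, was a promoter peak. Tet, a dioxygenase gene related to DNA demethylases, had 2 intron peaks with 104/96/136 and 287/237/243, and the histone kinase gene JIL-1 had one with 483/310/138. Adf1, a transcription factor gene, held one with 101/89/76, and RYBP, a Polycomb-associated gene, lay 7635 bp from one with 161/479/390.

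Of the list of insulin, TOR and translation control genes, Myc, Mnt and Sesn had peaks beyond the top 25, and larp, Wdr24 and Lk6 within it. Myc, the growth-driving transcription factor gene, held an intron peak 8733 bp from its nearest TSS, with ranks 402/233/125, and Mnt, which encodes its repressive counterpart, held one with 470/206/230. Sesn, a stress-induced regulator of TOR, shares a promoter peak with CG46429 at 151/133/106. Myc and Mnt had the worst of their 3 ranks in replicate 1.

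The remaining lists had few members each. Of 32 genes of insulin, TOR and translation control 3 had a promoter peak (9.38%), and of 54 translation factor genes 2 (3.7%), eIF4EHP and eIF6, the latter with ranks 401/64/47. The insulator list had 2 of 20 (10%), Chro and Cp190, the clock list 2 of 15 (13.3%), the neuronal list 2 of 27 (7.41%), and the lists of AT-rich DNA binding proteins, heat shock, lipid storage, integrin and autophagy genes 1 each, of 20, 18, 23, 22 and 23. With 1 to 3 genes behind each share, these are to be read against 1.45% of all genes as counts only.

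Single members of these lists complete the set. The cell death gene hid, 1 of 17 in the apoptosis list (5.88%, against 1.45% of all genes), had a promoter peak with ranks 231/134/232. Hsp83, the gene of the Hsp90 chaperone, held an intron peak with 264/262/295. The neuronal RNA-binding protein gene elav had a promoter peak with 239/193/174, the phospholipase C gene norpA of phototransduction an intron peak with 170/135/110, and the axon guidance gene NetA a promoter peak with 56/79/262. A peak in the 3′ UTR region of Lsd-2, a lipid droplet protein gene, had 269/106/163. No promoter among the 300 belonged to 35 tRNA synthetase, 20 muscle, 53 patterning transcription factor, 49 core transcription, 121 cuticle protein or 119 chemoreceptor genes. With 1.45% of all genes at such a peak, the absence from these lists, the larger ones included, is no result about them. Of 84 cytoplasmic ribosomal protein genes 53 had a reproducible peak at a promoter (63.1%, against 15.4% of all genes), and RpL37A alone was among the 300 (1.19%, against 1.45%). Across the 26 lists, 29 of 1068 genes had one of the 300 at a promoter (2.72%).

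Several peaks of the 300 sat close together. With a distance of at most 20 kb between neighbours, 75 of the 300 fell into 33 loci, of which 8 held 3 or more. The largest, on X from 12735679 to 12754520, held 4 peaks, in an intron of Smr, a nuclear receptor corepressor gene, and in exons of other annotated transcripts nearest to CG4004 and Paics, at pooled ranks 299, 9, 17 and 164. At tara, a gene of cell cycle and sleep control, 3 peaks spanned 14499 bp with ranks 864/137/86, 162/139/221 and 93/221/422. Although neighbours, these 3 differed: the first had its worst rank in replicate 1 and the last its worst in replicate 3. Their GC was 47.5%, 30% and 30%. At cbt, a zinc finger gene within the larger gene ush, 3 peaks lay within 1903 bp, at pooled ranks 250, 136 and 5. Act5C, a cytoplasmic actin gene, had 2 peaks 4696 and 653 bp from its nearest TSS, with 210/70/25 and 178/122/84, and the tight junction gene pyd had 2 intron peaks with 375/126/92 and 419/200/211. At least 1 other reproducible peak lay within 5 kb of 74.7% of the 300 and of 70% of the other reproducible peaks.

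The 300 lay on all major chromosome arms. There were 72 on 3R, 63 each on 2L and 3L, 60 on X, 42 on 2R and 0 on 4. The X share was 20% against 20.4% in the other reproducible peaks, and the 2L share 21% against 17.7%.

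Nearly all of the 300 were found again in each replicate. Candidates within 200 bp were present for 298 peaks in replicate 1 and for 300 in replicates 2 and 3, with median summit distances of 7, 9 and 8 bp. No replicate candidate was counted for more than 1 of the 300. The pooled call used the same reads, so this recovery was built in and was not tested. Cp190, at pooled rank 137, had no candidate of replicate 1 within 200 bp, the nearest being 4370 bp away, and ranked 201 and 362 in replicates 2 and 3. The intron peak of CG9663 at pooled rank 24 lay 206 bp from the nearest candidate of replicate 1 and ranked 24 and 10 in the others. Its neighbour at rank 80, 201 bp away, had ranks 60/155/112.

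Being found again did not mean being ranked alike. Within its own list, replicate 1 placed 239 of the 300 among its own 300 strongest, replicate 2 placed 270 and replicate 3 placed 251. All 3 replicates did so for 182 peaks, exactly 2 for 96, exactly 1 for 22 and none for 0. Of the 96, replicate 1 was the missing one for 58, replicate 3 for 29 and replicate 2 for 9. The median ratio of worst to best rank was 2.3, and 32 peaks had a ratio over 5. Among those 32 the worst rank was in replicate 3 for 19 and in replicate 1 for 13, and in replicate 2 for 0. The coefficient of variation (CV) of the relative signal had a median of 17.7%.

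Ranks were also checked without the pooled call. For each pair of replicates the 300 candidates of best mean rank were looked up in the replicate left out. Of those chosen on replicates 2 and 3, 203 were among the 300 strongest of replicate 1, with a median rank of 188.5. Replicates 1 and 3 gave 262 in replicate 2, with a median rank of 154.5, and replicates 1 and 2 gave 233 in replicate 3, with a median rank of 160.5. The mean was 77.6 ± 9.83% (SD, n = 3). Within the left-out replicate's top 1000 lay 296, 300 and 298 of the 300. All replicates shared 1 control file, whose part in this was not tested.

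**Figure D4:**
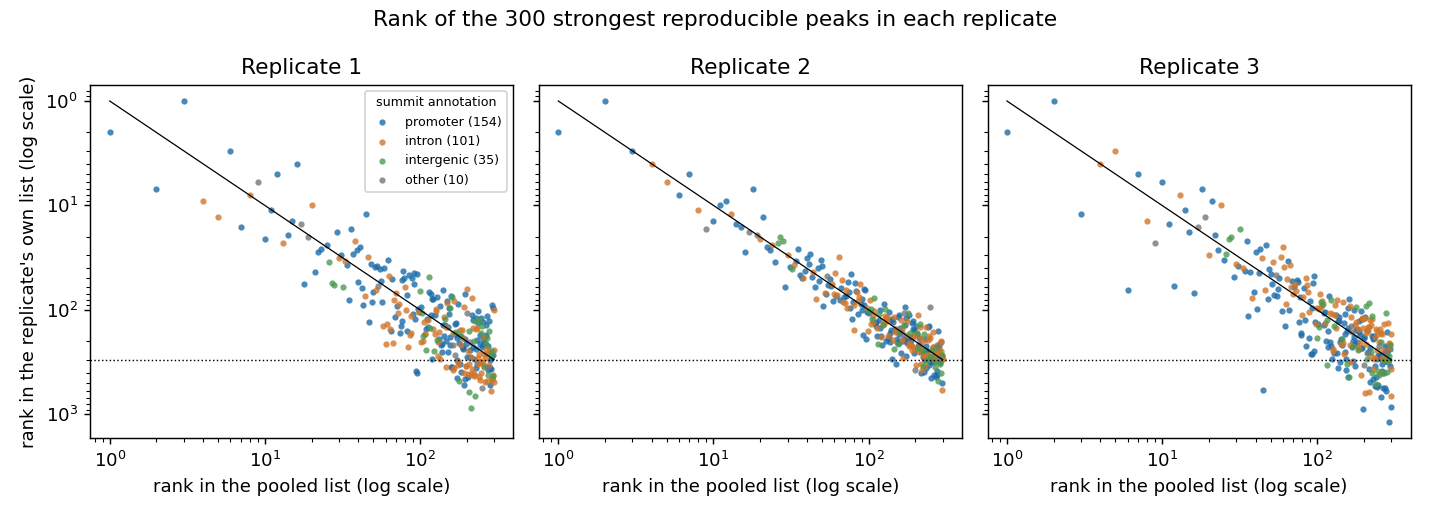
Rank of each of the 300 peaks in a replicate's own list (vertical, log scale, best at the top) against its rank in the pooled list (horizontal, log scale), coloured by annotation, with the line of equal ranks and a dotted line at rank 300. Points lie closest to the line in replicate 2, where 270 of the 300 are above the dotted line, against 239 in replicate 1 and 251 in replicate 3.

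Of the 10 peaks with the widest ratio of worst to best rank, 8 were promoters, and 9 had their best rank in replicate 1 and their worst in replicate 3. The promoter shared by prd1 and HisCl1, a histamine-gated chloride channel gene, had ranks 12/60/579 and relative signals of 58, 25.6 and 12.9. Ide, an insulin-degrading enzyme gene that shares its peak with RhoBTB, had ranks 90/316/1190 and relative signals of 29.2, 14.4 and 8.52, and Trf2, a TBP-related factor gene, had ranks 71/157/890 and relative signals of 31, 18.9 and 10.1. In each of these the relative signal was highest in replicate 1 and lowest in replicate 3. The promoter shared by CG6565 and Bdp1, an RNA polymerase III initiation factor gene, had 97/498/851, and the intron peak of Dif, an NF-kappaB factor gene of immunity, had 63/336/629. The peak of tara at pooled rank 214 went the opposite way, with ranks 864/137/86 and relative signals of 11.6, 19.6 and 26.3. The other 4 of the 10 widest ratios, at Hibch, mRpL41, rdgB and Wdr24, belonged to the top 25, and all had their best rank in replicate 1.

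The most even peaks were of mixed kinds. By the CV of the relative signal the 10 most even were nearest to dob, Gapdh2, heca, Vti1b, pnut, CG7601, CG8320, PAN3, Spn and Ntf-2r, with CVs from 2.04% to 4.66%. Of these, 6 were promoters. The peak nearest dob, within Lsd-2, had relative signals of 20.3, 20.8 and 21.2, and the intergenic peak 5228 bp from heca had 22.8, 21.7 and 22.4. The septin gene pnut had 19.9, 19.2 and 20.4 and PAN3, a gene of deadenylation, had 19.4, 19.3 and 18. Even peaks could still differ in rank: the Spn intron peak had 330/111/210.

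Rank differences between replicates moved with base composition. The 100 peaks of lowest GC (21% to 31%) had median ranks of 116, 207 and 250, and the 100 of highest GC (36.5% to 55.5%) had 204, 128 and 118. Replicate 1 held 96 of the low-GC and 60 of the high-GC peaks among its own 300 strongest, and replicate 3 held 64 and 94. Replicate 2 held 81 and 97. Across the 298 peaks found in all 3 replicates, Spearman's rho between GC and log2 of the rank in replicate 1 over the rank in replicate 3 was 0.60. It was 0.61 for replicate 1 over 2 and 0.36 for replicate 2 over 3. Within classes the first of these was 0.57 over 153 promoter, 0.60 over 100 intron and 0.55 over 35 intergenic peaks. These are correlations across peaks that share the 3 libraries and the control, so they describe these libraries and have no p-value. In 6484 other reproducible peaks found in all 3 lists, which had no part in choosing the 300, rho was 0.44 for replicate 1 over 3. Peak width gave -0.31 and distance to a TSS 0.24 in the 300. The source of this relation was not tested.

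**Figure D5:**
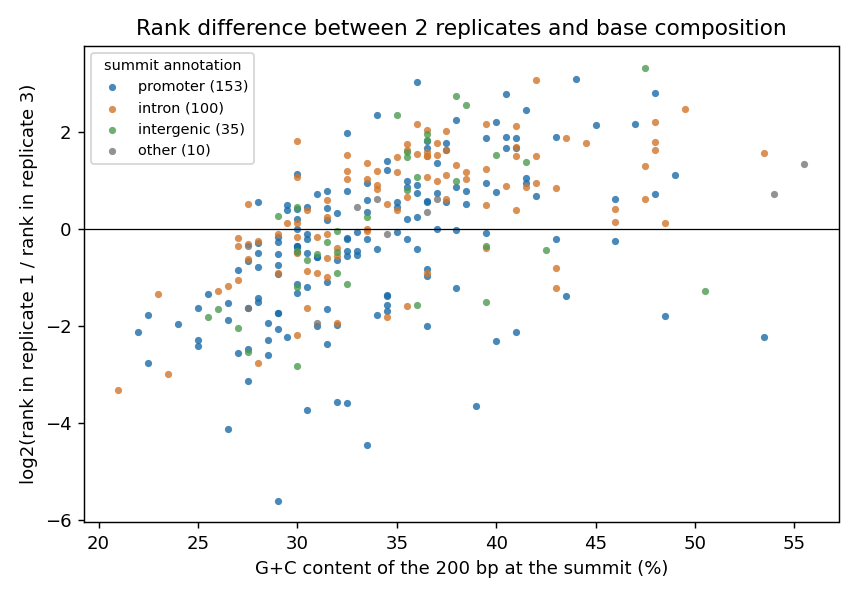
Log2 of the rank in replicate 1 over the rank in replicate 3 against the G+C content of the 200 bp at the summit (percent), 1 point for each of 298 peaks found in all 3 replicates, coloured by annotation. Points below 0 ranked better in replicate 1, and they gather at low G+C content, with Spearman's rho 0.60.

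The extremes of composition show this in single peaks. The lowest-GC and the highest-GC member outside the top 25 are printed here, 201 bp each on the plus strand in dm6 coordinates, with no part in capitals.
Dif, rank 202, chr2L:17430115-17430315: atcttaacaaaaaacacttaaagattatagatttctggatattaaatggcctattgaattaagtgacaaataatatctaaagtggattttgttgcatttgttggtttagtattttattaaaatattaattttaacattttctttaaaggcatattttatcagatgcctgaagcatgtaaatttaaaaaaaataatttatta
cbt, rank 250, chr2L:479054-479254: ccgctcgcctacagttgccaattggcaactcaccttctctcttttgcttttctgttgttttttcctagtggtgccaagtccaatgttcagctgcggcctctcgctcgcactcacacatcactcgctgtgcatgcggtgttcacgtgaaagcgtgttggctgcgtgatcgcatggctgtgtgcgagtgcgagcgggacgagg
The Dif intron peak had 21% GC in 200 bp and ranks 63/336/629. The cbt peak, in a 5′ UTR 534 bp from a TSS, had 55.5% GC and ranks 564/93/222. Some peaks went against the pattern: the NetA promoter peak, at 53.5% GC, ranked 56/79/262, best in replicate 1.

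Annotation classes had unlike ranks as well. Promoter peaks had median ranks of 122, 141 and 161 and a median GC of 33%. Intron peaks had 182, 162.5 and 137 and a median GC of 35.5%, and intergenic peaks had 167, 169 and 202 and 35%. Of the 101 intron peaks, replicate 1 held 70 among its own 300 strongest and replicate 3 held 91. Of the 154 promoter peaks they held 133 and 126. The 3 rank patterns were not tested against each other.

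The limit at rank 300 fell on a smooth slope. The last 3 peaks inside were trx, with a pooled signal of 1456 and ranks 241/289/370, Smr, with 1454 and 100/589/674, and the peak nearest crq in an intron of ex, with 1453 and 486/296/172. The first 3 outside lay nearest to puc, with a signal of 1452 and ranks 223/309/409, Eno, with 1448 and 255/354/358, and NK7.1, with 1443 and 541/235/194. When the 300 were chosen by the mean of the 3 relative signals in place of the pooled signal, 295 were the same peaks.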

How the data were processed

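Each of 3 biological replicates of whole prepupae of the tagged CG10669 line had a deposited candidate peak list, beside a pooled list and a reproducible list. Per the file headers, each replicate list came from its own alignments with 1 control file shared by all 3, the pooled list from all alignments, and the reproducible list from these 4 lists. The signal values and the -log10 q-values are as deposited by the authors. The -log10 q-value was 4.24 for every reproducible peak and was not used. No label or header names the aligner, the peak caller or the reproducibility threshold, and reads per sample are unknown, so no counting error could be given for a signal.

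Coordinates are dm6, and gene models came from Ensembl release 115 of the same assembly. A summit was matched to the nearest candidate summit within 200 bp, ranked by signal. Classes were assigned in the order promoter (within 500 bp of a protein-coding TSS), UTR at the 5′ end, coding sequence, UTR at the 3′ end, remaining exons, intron and intergenic. GC and motifs used 200 bp at the summit, with flanks 500 bp away. Replicate differences were tested with an exact two-sided sign-flip permutation, which cannot give p below 0.25 with 3 replicates. Wilson intervals are 95%. Scripts used Python 3.11.15, numpy 2.4.6, pandas 2.3.3 and scipy 1.17.1 and were tested on simulated data.

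The peaks, gene lists and motifs were chosen with earlier results of these data known, and the 8-letter and 6-letter words after their counts were seen. Genes were named by rule: ranks 26 to 60, the 6 highest ranks of each class, peaks missing in a replicate, the 10 largest rank ratios, the 10 smallest CVs, list members, peaks beside rank 300, peaks with a printed sequence and loci of 3 or more. Further genes were named outside this rule, after their values were seen. Alternatives were other promoter windows, TSS sets, match distances, sequence windows, numbers of peaks, comparison sets and leaving out each replicate. Labels that disagree (an age, an input description, an antibody name) were set aside.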

Additional observations from a re-analysis of the deposited data

How the results depend on the processing

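Of 42 alternative settings, 2 reversed a direction and 4 moved a value that has no test by more than its tolerance. The GC difference between a replicate's 300 strongest and its next candidates, -1.33 percentage points, became 0.527 against the next 300 only and 0.81 in a 400 bp window, was -3.81 in a 100 bp window and -0.662 for the 150 strongest, and ranged from -1.6 to -1.09 when each replicate was left out. The cause was not tested. The promoter share of the 300, 51.3%, was 39.3% with a 250 bp window, 62% with 1000 bp and 38.7% with canonical TSSs, since each setting changes which summits count. The 202 genes became 330 when gene bodies with 500 bp on each side were counted. The promoter difference stayed positive, from 11.7 to 26.8 points over all settings, and from 18.3 to 26.2 when each replicate was left out. No paired analysis was possible because all 3 samples belong to 1 group, so no groups share replicate numbers. The differences tested are between peaks of the same replicate. Unknown read depth limits how firmly any rank of a single peak can be stated.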
